A study of Mus musculus with 31 samples.

Results

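The ADAM and ADAMTS proteases and the ADAMTS-like proteins were followed in tumours of AB1-mCherry, a mouse mesothelioma line, that grew at 3 body sites. Members were all genes whose symbol is Adam, Adamts or Adamtsl followed by a number (for Adam, also with a closing letter). They numbered 58 of the 54456 genes listed for whole tumours, and 18 of these were among the 12461 entries listed for sorted cells. Expression was measured by RNA sequencing and is given in TPM (transcripts per 1000000), a level scaled for transcript length and library total. The groups were whole subcutaneous (n = 5), peritoneal (n = 5) and pleural (n = 6) tumours, and sorted cells from each site (n = 5 per site). Sorted cells were CD45-negative and mCherry-positive, a gate that keeps labelled cancer cells and removes leukocytes. All mice were untreated female BALB/c animals of 12 weeks with an intact immune system, and every tumour was taken on day 10. A single line enriched for bright mCherry signal was used throughout, so all groups shared its origin, and the labels name a mouse for each library. Libraries are numbered here by that mouse. Whole tumours and sorted cells mostly carry the same mouse numbers, so the 2 kinds of sample are not independent of each other.

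ADAM proteins are mostly membrane-anchored and release the outer parts of other membrane proteins, among them growth factors, cytokines and adhesion molecules. ADAMTS proteins are secreted, carry thrombospondin repeats and cut the extracellular matrix: some cleave the proteoglycans versican and aggrecan, some trim procollagens so that fibrils can form, and others act on fibrillin microfibrils or cartilage oligomeric matrix protein. Proteolysis needs a zinc ion held by histidines of the metalloprotease domain. ADAMTS-like proteins have the thrombospondin repeats without that domain, and several ADAMs, including ADAM22, lack a working site.

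The coding stretch of this zinc site is shown for the 9 members whose transcripts differed between sites, because it is the part that sets proteases of the family apart from members without a working site. Each line gives 33 bases (11 codons) of the coding strand, with the codons of the zinc-binding histidines and of the catalytic glutamate in capitals, read from GENCODE M21 transcripts on GRCm38.
Adam12: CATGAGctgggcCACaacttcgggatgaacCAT
Adam19: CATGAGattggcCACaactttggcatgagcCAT
Adamts1: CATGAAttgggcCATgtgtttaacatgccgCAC
Adamts4: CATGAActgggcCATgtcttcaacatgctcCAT
Adamts2: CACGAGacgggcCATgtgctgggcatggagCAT
Adamts14: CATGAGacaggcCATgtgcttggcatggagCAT
Adamts12: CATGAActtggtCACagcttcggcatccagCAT
Adamts6: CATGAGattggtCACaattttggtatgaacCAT
Adam22: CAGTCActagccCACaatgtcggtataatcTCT
The Adam22 line is the stretch that aligned without gaps to the sites of Adam9 and Adam12, and 1 of its 4 marked codons encodes the same residue as theirs. Of 57 members with a transcript in that annotation, 39 held the full pattern and 18 did not. All 9 membrane ADAMs grouped as proteases and all 19 ADAMTS genes held it, while none of the 5 ADAMTS-like genes and none of Adam7, Adam11, Adam22 and Adam23 did. Asparagine stood in the middle of the site, where 33 members have glycine, in 5 proteoglycan-cleaving members including Adamts1 and Adamts4. These lines also fall differently on the exons. The stretch of Adam12 lies within exon 11 (chr7:133961158-133961190, minus strand), that of Adam19 within exon 11 (chr11:46125050-46125082, plus strand) and that of Adam22 within exon 13 (chr5:8143064-8143096, minus strand). In Adamts1 (chromosome 16) and Adamts4 (chromosome 1) an intron divides it after base 10, between exons 3 and 4. In Adamts2 (chromosome 11), Adamts14 (chromosome 10), Adamts12 (chromosome 15) and Adamts6 (chromosome 13) an intron divides it after base 17.

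Between 14148 and 14880 genes per whole tumour and 11557 to 12213 per sorted library reached 1 TPM, and read depth is unknown because TPM keeps no depth. Transcripts were tested where at least 1 TPM was reached in at least 5 libraries, which left 25 members among 15054 genes for whole tumours, with 18 members among 12357 genes for sorted cells. A difference was called at an adjusted p below 0.05 in a limma model of log2(TPM + 1), adjusted over all genes tested by the Benjamini-Hochberg method. Fold changes (log2FC) are differences on that log2 scale, with standard errors (SE), and understate the ratio of genes near or below 1 TPM. The mesothelioma marker Msln ranged from 163 to 286 TPM among whole tumours, and its sorted-cell levels were 150 to 316 TPM. Ptprc, which encodes CD45, measured 32.7 to 74.3 TPM in whole tumours and 12.9 and 7.48 TPM in sorted subcutaneous libraries 1 and 2, against at most 2.05 TPM in the other sorted libraries. Whole pleural tumour 3 stood apart in stromal markers, with 10 fibroblast markers summing to 772 TPM against 248 to 384 in the other pleural tumours and 6 smooth muscle and pericyte markers to 166 against 13.5 to 62.3. Sorted pleural library 5 held 31.9 TPM of the lung transcript Sftpc and 38.9 TPM of Scgb1a1, genes looked at after their values were seen. In whole tumours the share of called genes that were higher than in subcutaneous tumours depended on scaling, at 73.4% for pleural (41.4% with median-of-ratios scaling, 46.8% with quantile normalization) and 70.1% for peritoneal tumours (42.4% and 47.3%). The matching shares in sorted cells were 24.1% for pleural (28.1% and 40.1%) and 42.9% for peritoneal cells (43% and 61.6%), and 44.7% for pleural against peritoneal cells (55.1% and 43.4%). No called difference of a member changed direction under either scaling.

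Expression of the family rested on a few membrane ADAMs. Of the 58 members, 11 were listed at 0 in every whole tumour, 19 stayed between 0 and 1 TPM, and 28 reached 1 TPM in at least 1 tumour. None of the 21 testis and sperm ADAMs reached 1 TPM. The sum over the family was 406 to 475 TPM in subcutaneous, 418 to 460 in peritoneal and 415 to 598 in pleural tumours. Adam15, Adam9, Adam17, Adam10 and Adam8 together supplied 56.2 to 67.1% of that sum. In sorted cells the family summed to 320 to 398 TPM in subcutaneous, 222 to 327 in peritoneal and 301 to 357 in pleural libraries, and Adamts1, Adam15, Adam9, Adamtsl5 and Adam17 supplied 65.4 to 75.1%. The plot of TPM per library gives all 28 members.

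**Figure D1:**
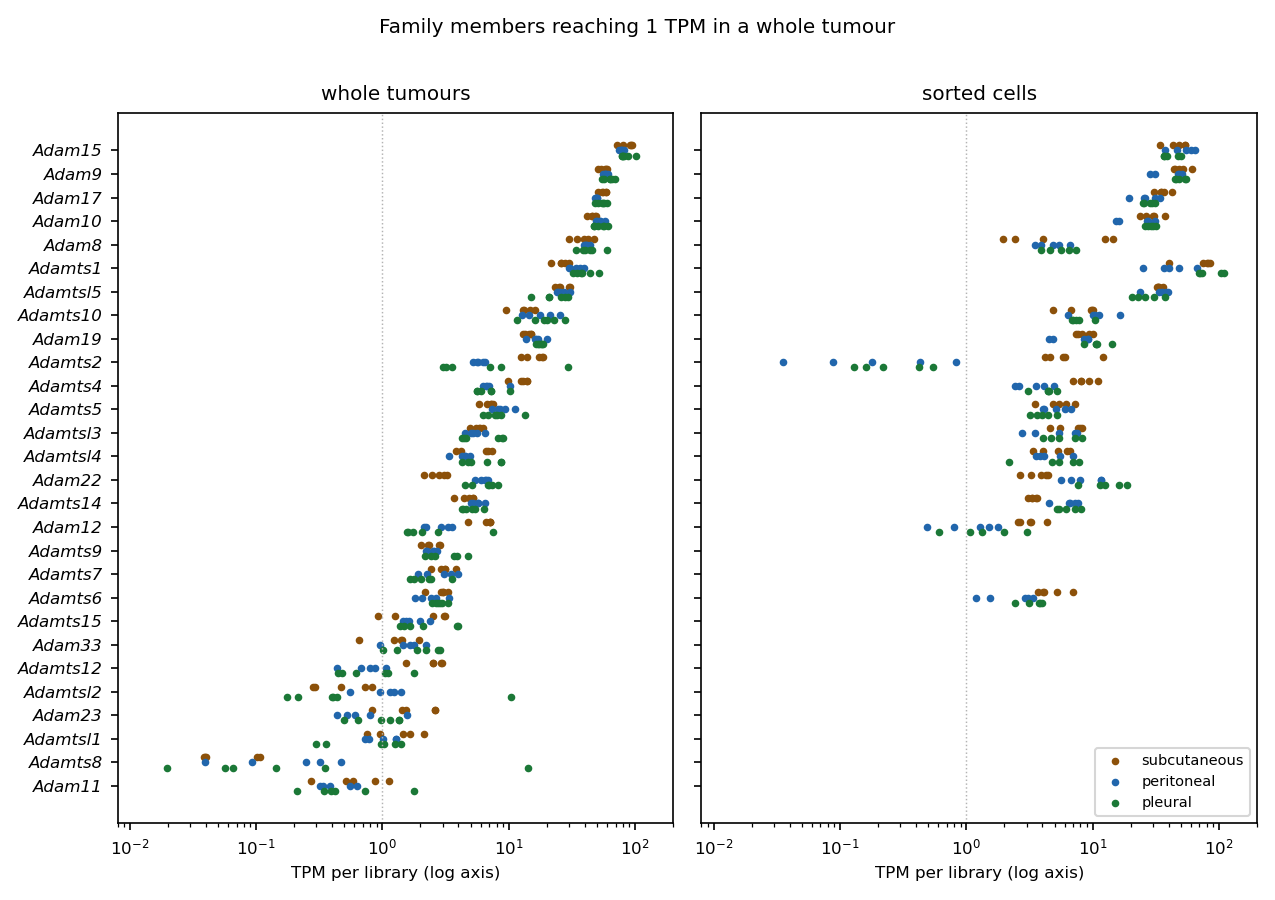
TPM in each library (log axis) of the 28 members that reached 1 TPM in a whole tumour, for whole tumours on the left and sorted cells on the right, with points coloured by site and a dotted line at 1 TPM. Adam15, Adam9, Adam17, Adam10 and Adam8 have the highest mean levels in whole tumours, and Adamts8 and Adamtsl2 each have a single high point, pleural tumour 3.

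The membrane proteases had the highest levels of the family in whole tumours. Adam15, a disintegrin with a metalloprotease site, measured 71.6, 93.7, 80.5, 95.3 and 91.8 TPM in the subcutaneous tumours, 78.4, 76.9, 78.0, 74.0 and 81.6 in the peritoneal ones and 79.3 (lowest), 80.9 (median) and 102 (highest) in the pleural ones. Adam9, a membrane protease of epithelial and stromal cells, measured 53.3, 50.6, 59.2, 57.6 and 59.6 TPM subcutaneously, 55.2, 57.4, 58.8, 60.5 and 58.0 peritoneally and 54.4 (lowest), 63.1 (median) and 69.2 (highest) in pleural tumours. The ranges of the 3 sites overlapped for both genes, and neither was called in any comparison.

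Adam10, the main sheddase of Notch receptors and cadherins, measured 45.4, 41.5, 45.8, 48.1 and 49.5 TPM in subcutaneous, 50.3, 49.3, 53.2, 52.5 and 57.4 in peritoneal and 47.0 (lowest), 53.2 (median) and 61.2 (highest) in pleural tumours. Adam17, the enzyme that releases TNF and several ligands of the EGF receptor, measured 54.8, 50.8, 55.3, 58.7 and 58.3 TPM in subcutaneous, 49.9, 47.8, 49.3, 49.4 and 49.5 in peritoneal and 48.4 (lowest), 55.1 (median) and 60.2 (highest) in pleural tumours. All 5 peritoneal Adam17 values lay below all 5 subcutaneous ones, and the difference fell just outside the call (log2FC -0.17, SE 0.05, adjusted p = 0.0505). It was called in 9 of the other settings tried, which included median-of-ratios scaling (adjusted p = 0.00732), and 3 left out a single library: subcutaneous tumour 2 (0.0394), pleural tumour 5 (0.0357) or pleural tumour 7 (0.0338). Adam10 was called higher in pleural than subcutaneous tumours only where pleural tumour 1 (log2FC 0.23, adjusted p = 0.0407) or pleural tumour 7 (log2FC 0.23, adjusted p = 0.0465) was left out.

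Adam8, a protease of myeloid cells, measured 29.9, 47.0, 42.7, 39.7 and 34.6 TPM in subcutaneous, 41.6, 39.6, 40.6, 44.2 and 39.8 in peritoneal and 34.4 (lowest), 42.0 (median) and 59.5 (highest) in pleural tumours, with the highest value in pleural tumour 3. Sorted cells held 14.6, 12.6, 2.44, 4.05 and 1.94 TPM in subcutaneous libraries 1 to 5, 6.57, 4.87, 5.37, 3.92 and 3.50 in peritoneal and 4.59, 6.48, 3.91, 7.40 and 5.66 in pleural ones. The high sorted values were those of subcutaneous libraries 1 and 2, where 8 pan-leukocyte markers summed to 326 and 231 TPM against 20.7 to 64.5 in the other sorted libraries. Their part in the Adam8 level was not tested. Adam8 was not called in any comparison.

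The other sheddases of sorted cells also lay close together. Adam15 measured 53.9, 54.2, 42.9, 48.3 and 34.3 TPM in subcutaneous, 37.3, 60.0, 54.9, 46.5 and 64.6 in peritoneal and 36.4, 49.8, 39.1, 37.0 and 47.4 in pleural cells. Adam9 measured 61.0, 52.4, 48.0, 44.3 and 45.1, then 51.4, 31.0, 47.7, 48.5 and 28.5 and 48.2, 45.3, 54.6, 44.6 and 54.2 TPM at the same sites. In both genes the ranges of the 3 sites overlapped. Adam10 measured 37.1, 30.2, 26.7, 23.9 and 30.4 TPM in subcutaneous, 31.3, 16.2, 26.8, 27.5 and 15.2 in peritoneal and 26.1, 27.6, 31.5, 29.2 and 30.2 in pleural cells. Adam17 measured 42.3, 36.9, 34.5, 30.6 and 35.0 TPM in subcutaneous, 31.1, 19.4, 26.1, 34.1 and 25.3 in peritoneal and 31.0, 25.0, 25.5, 29.6 and 28.5 in pleural cells. Peritoneal libraries 2 and 5 were the lowest for Adam10, and peritoneal against subcutaneous Adam17 missed the call (log2FC -0.40, SE 0.13, adjusted p = 0.0586). It was called with median-of-ratios scaling (adjusted p = 0.0262) and quantile normalization (0.0212), and without peritoneal library 1 (0.0419) or 4 (0.0287).

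Pleural and subcutaneous whole tumours were compared to ask how the family differs between a body cavity native to mesothelioma and the common injection site under the skin. Adam22, Adamts1 and Adam19 were higher in pleural tumours, and Adam12, Adamts4 and Adamts12 were lower. These 6 of 25 members tested compare with 12.8% of all genes called, 9.4% of genes called higher and 3.4% called lower. The median log2FC was 0.10 over the members tested and 0.07 over all genes tested. In all, 11 members had an unadjusted p below 0.05. The share of all genes at that unadjusted threshold was not counted, here or in the comparisons below, so such counts have no background.

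Peritoneal against subcutaneous tumours gave 5 called members of 25, with Adam22 higher and Adamts2, Adamts4, Adam12 and Adamts12 lower, where 12.2% of all genes were called (8.52% higher and 3.64% lower). The median log2FC was -0.07 over the members and 0.07 over all genes. This comparison and the pleural one share the subcutaneous libraries, so they are not independent. Between pleural and peritoneal tumours limma called 0 of 25 members against 0.0531% of all genes, and 2 members had an unadjusted p below 0.05. No other tool was run. The count of 5 peritoneal calls was 3 without subcutaneous tumour 3, 4 or 5 or peritoneal tumour 1 or 2, each left out alone.

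**Figure D2:**
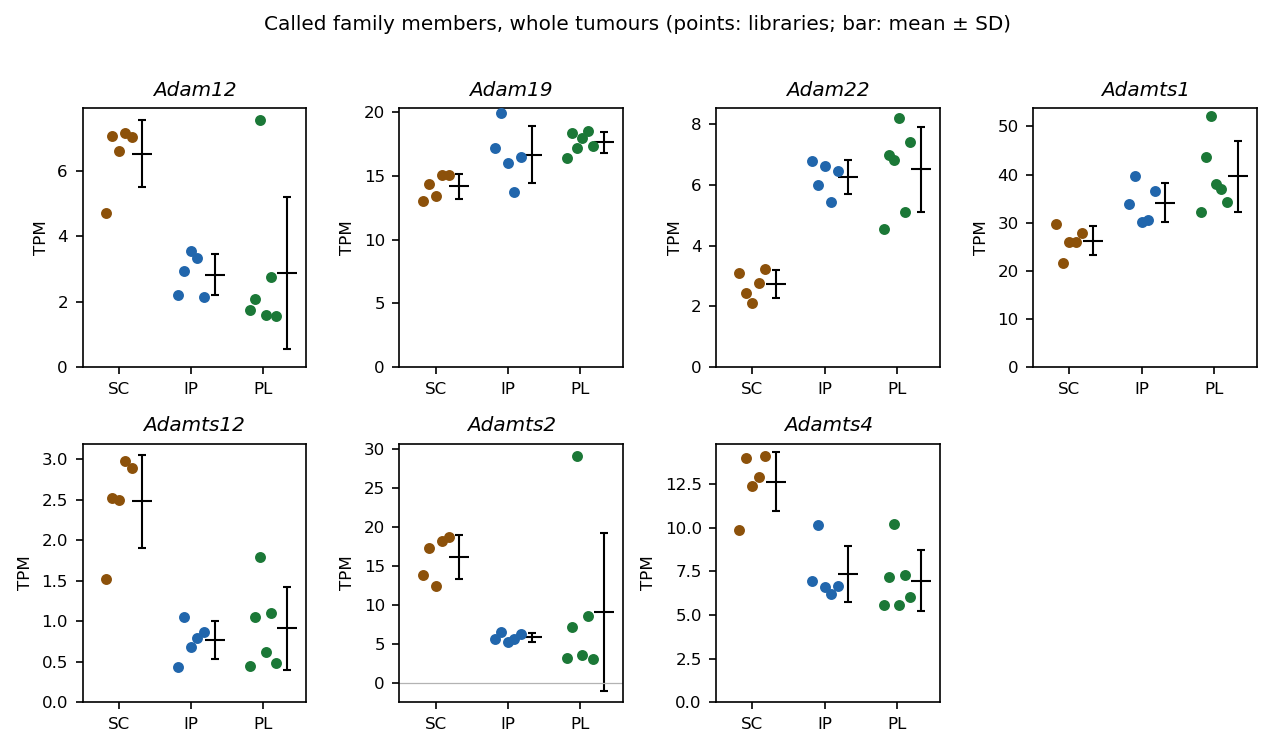
TPM of the 7 members called in whole tumours, by site (SC subcutaneous, IP peritoneal, PL pleural), with 1 point per tumour and bars for mean ± SD (n = 5, 5 and 6). Adam22 is higher at both serosal sites, while Adamts2, Adamts4, Adam12 and Adamts12 are mostly lower, with pleural tumour 3 the highest pleural point in these 4 genes.

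Adam22, a catalytically inactive ADAM known as the neuronal receptor of the LGI proteins, was higher at both serosal sites. It measured 3.09, 2.45, 2.12, 2.78 and 3.22 TPM in subcutaneous tumours, 6.80, 5.98, 6.62, 5.44 and 6.44 in peritoneal tumours and 4.53 (lowest), 6.90 (median) and 8.21 (highest) in pleural tumours. No pleural or peritoneal tumour was as low as the highest subcutaneous one. Adam22 rose from 2.73 ± 0.452 TPM (mean ± SD, n = 5) to 6.51 ± 1.41 TPM (mean ± SD, n = 6) in pleural tumours (log2FC 0.99, SE 0.13, adjusted p = 0.000255) and to 6.26 ± 0.549 TPM (mean ± SD, n = 5) in peritoneal tumours (log2FC 0.96, SE 0.13, adjusted p = 0.000401). In bulk samples fewer cells of a type and less RNA per cell cannot be told apart, for this and every other whole-tumour result.

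Sorted cells, mostly from the same mice, were also measured. Their Adam22 levels were 4.24, 3.24, 4.41, 3.88 and 2.68 TPM in subcutaneous, 11.7, 5.58, 7.94, 11.7 and 6.70 in peritoneal and 7.61, 11.5, 18.7, 12.5 and 16.1 in pleural libraries. Every serosal library exceeded every subcutaneous one, and the peritoneal and pleural ranges overlapped. Adam22 rose from 3.69 ± 0.721 TPM (mean ± SD, n = 5) to 13.3 ± 4.26 TPM (mean ± SD, n = 5) in pleural cells (log2FC 1.57, SE 0.23, adjusted p = 0.000928) and to 8.72 ± 2.84 TPM (mean ± SD, n = 5) in peritoneal cells (log2FC 1.02, SE 0.23, adjusted p = 0.0108). The pleural excess over peritoneal cells missed the call (log2FC 0.55, SE 0.23, adjusted p = 0.125) and was called only without pleural library 1 (log2FC 0.72, adjusted p = 0.0464). Without subcutaneous libraries 1 and 2, or without peritoneal libraries 2 and 5, both differences from subcutaneous cells remained called.

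Adam12, a protease of activated fibroblasts and muscle precursors, was lower at the serosal sites. Whole tumours held 4.72, 7.07, 6.61, 7.15 and 7.04 TPM subcutaneously, 2.20, 2.93, 3.54, 3.33 and 2.14 peritoneally and 1.55 (lowest), 1.90 (median) and 7.54 (highest) in pleural tumours. Pleural tumour 3 was higher than all subcutaneous tumours, and the other pleural tumours were below all of them. Adam12 fell from 6.52 ± 1.03 TPM (mean ± SD, n = 5) to 2.87 ± 2.33 TPM (mean ± SD, n = 6) in pleural tumours (log2FC -1.10, SE 0.25, adjusted p = 0.0139) and to 2.83 ± 0.638 TPM (mean ± SD, n = 5) in peritoneal tumours (log2FC -0.98, SE 0.27, adjusted p = 0.0279). The peritoneal call was lost without any 1 of subcutaneous tumours 2 to 5 or peritoneal tumours 1, 2 and 7 (adjusted p = 0.0508 to 0.0656).

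Sorted cells held Adam12 at 4.36, 2.57, 3.27, 3.20 and 2.67 TPM in subcutaneous, 1.28, 0.800, 1.77, 1.51 and 0.485 in peritoneal and 0.606, 1.33, 3.02, 1.06 and 1.98 in pleural libraries. The peritoneal values all lay below the subcutaneous ones (log2FC -0.98, SE 0.23, adjusted p = 0.0142), a call that was lost without peritoneal libraries 2 and 5 (log2FC -0.73, adjusted p = 0.0899). Pleural library 3 overlapped the subcutaneous range, and the pleural difference was not called (log2FC -0.75, SE 0.23, adjusted p = 0.148) unless that library was left out (log2FC -0.93, adjusted p = 0.0482).

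Adam19, a related protease that sheds neuregulin, measured 13.0, 14.4, 13.4, 15.1 and 15.1 TPM in subcutaneous, 17.2, 19.9, 16.0, 13.7 and 16.5 in peritoneal and 16.4 (lowest), 17.7 (median) and 18.5 (highest) in pleural tumours. The pleural values were narrow and above all subcutaneous values. Adam19 rose in pleural tumours (log2FC 0.30, SE 0.07, adjusted p = 0.0191), a small change that missed the call under quantile normalization (log2FC 0.21, adjusted p = 0.0551). The peritoneal difference was not called (log2FC 0.21, SE 0.08, adjusted p = 0.0796) but was without peritoneal tumour 4 (adjusted p = 0.0190). In sorted cells Adam19 measured 10.1, 7.70, 9.44, 7.42 and 8.21 TPM subcutaneously, 9.18, 4.88, 8.52, 9.17 and 4.55 peritoneally and 10.6, 10.7, 14.3, 8.57 and 10.6 in pleural cells, with overlapping ranges. Pleural against peritoneal Adam19 missed the call in sorted cells (log2FC 0.57, SE 0.19, adjusted p = 0.0624) and was called without peritoneal library 1 (adjusted p = 0.0411) or 4 (0.0488), and with median-of-ratios scaling (0.0177) or quantile normalization (0.0153).

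Among the proteoglycan-cleaving ADAMTS genes, Adamts1 was the most abundant. Whole tumours held 29.8, 21.6, 25.9, 25.98 and 27.9 TPM subcutaneously, 33.9, 39.6, 30.2, 30.5 and 36.6 peritoneally and 32.2 (lowest), 37.6 (median) and 52.2 (highest) in pleural tumours. All peritoneal and pleural tumours exceeded all subcutaneous ones. Adamts1 rose from 26.2 ± 3.05 TPM (mean ± SD, n = 5) to 39.6 ± 7.29 TPM (mean ± SD, n = 6) in pleural tumours (log2FC 0.57, SE 0.11, adjusted p = 0.00751). The peritoneal difference fell just outside the call (log2FC 0.37, SE 0.12, adjusted p = 0.0536) and was called without peritoneal tumour 4 (adjusted p = 0.0472), pleural tumour 1 (0.0467) or pleural tumour 3 (0.0243).

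In sorted cells Adamts1 had the highest mean of all members in subcutaneous and pleural cells, and Adam15 had it in peritoneal cells. Adamts1 levels were 74.2, 40.1, 82.0, 80.7 and 84.5 TPM in subcutaneous, 39.9, 36.7, 67.2, 48.4 and 24.9 in peritoneal and 70.5, 73.0, 105, 110.0 and 69.6 in pleural libraries. Each pleural library lay above every peritoneal one, and the subcutaneous range overlapped both. Adamts1 was the only member of 18 called between pleural and peritoneal cells (log2FC 1.01, SE 0.25, adjusted p = 0.0221), where 9.96% of all genes were called (4.45% higher and 5.51% lower) and 3 members had an unadjusted p below 0.05. The call was lost, for a count of 0, without peritoneal library 2 (adjusted p = 0.0568), pleural library 3 (0.0530) or pleural library 4 (0.0623), and without peritoneal libraries 2 and 5 together (log2FC 0.71, adjusted p = 0.105). The peritoneal level against the subcutaneous one missed the call (log2FC -0.75, SE 0.25, adjusted p = 0.0624) and was called without subcutaneous library 2 (adjusted p = 0.0146) or peritoneal library 3 (0.0226).

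Adamts4, known as an aggrecanase, moved the other way. It measured 9.86, 14.0, 12.4, 12.9 and 14.1 TPM in subcutaneous, 6.94, 10.1, 6.61, 6.21 and 6.68 in peritoneal and 5.56 (lowest), 6.62 (median) and 10.2 (highest) in pleural tumours. Peritoneal tumour 2 and pleural tumour 3 reached the lowest subcutaneous value, and the rest lay below the subcutaneous range. Adamts4 fell in pleural (log2FC -0.79, SE 0.14, adjusted p = 0.00431) and in peritoneal tumours (log2FC -0.72, SE 0.15, adjusted p = 0.00848).

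The Adamts4 difference was cleaner in sorted cells, with 10.9, 7.03, 9.40, 8.14 and 8.09 TPM in subcutaneous, 3.55, 2.62, 4.97, 4.13 and 2.44 in peritoneal and 4.53, 4.46, 3.06, 5.18 and 4.42 in pleural libraries. No serosal library reached the subcutaneous range. Adamts4 fell from 8.72 ± 1.49 TPM (mean ± SD, n = 5) to 4.33 ± 0.775 TPM (mean ± SD, n = 5) in pleural (log2FC -0.87, SE 0.17, adjusted p = 0.0108) and to 3.54 ± 1.06 TPM (mean ± SD, n = 5) in peritoneal cells (log2FC -1.12, SE 0.17, adjusted p = 0.000711). Without subcutaneous libraries 1 and 2 the pleural call was lost at nearly the same size (log2FC -0.85, adjusted p = 0.0584). The other proteoglycan-cleaving members tested, Adamts5, Adamts9 and Adamts15, were called in no comparison, with site means of 6.90 to 8.93, 2.44 to 3.25 and 1.80 to 2.41 TPM in whole tumours.

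Sorted pleural against subcutaneous cells gave 4 called members of 18, Adam22 and Adamts14 higher and Adamts2 and Adamts4 lower, where 1.64% of all genes were called (0.397% higher and 1.25% lower). In all, 6 members had an unadjusted p below 0.05, and the median log2FC was -0.09 over the members and -0.02 over all genes. Sorted peritoneal against subcutaneous cells gave 6 called members, with Adam22 and Adamts14 higher and Adamts2, Adamts4, Adamts6 and Adam12 lower, where 11.1% of all genes were called (4.75% higher and 6.33% lower). The median log2FC was -0.28 over the members and -0.03 over all genes. Peritoneal libraries 2 and 5 had the lowest family sums of that site, 254.5 and 222.5 TPM, against 302, 327 and 309 in libraries 1, 3 and 4. Without both, the median over all genes was 0.07, and the median over the members was not read in that setting. Both comparisons share the subcutaneous libraries. Both counts also include Adamts2, which met the filter for testing only through the subcutaneous libraries, where it was high. Over both kinds of sample 9 members were called in at least 1 comparison, 7 of them in whole and 7 in sorted samples. Adam12, Adam22, Adamts1, Adamts2 and Adamts4 were called in both. The shares of all genes called in any comparison, or in both kinds of sample, were not counted. These counts over comparisons therefore have no background to be read against, and the 2 kinds of sample mostly share mice. For Adamts1 the comparisons differed: pleural against subcutaneous in whole tumours, and pleural against peritoneal in sorted cells. Its peritoneal difference from subcutaneous, called in neither, had opposite directions (log2FC 0.37 in whole tumours and -0.75 in sorted cells).

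**Figure D3:**
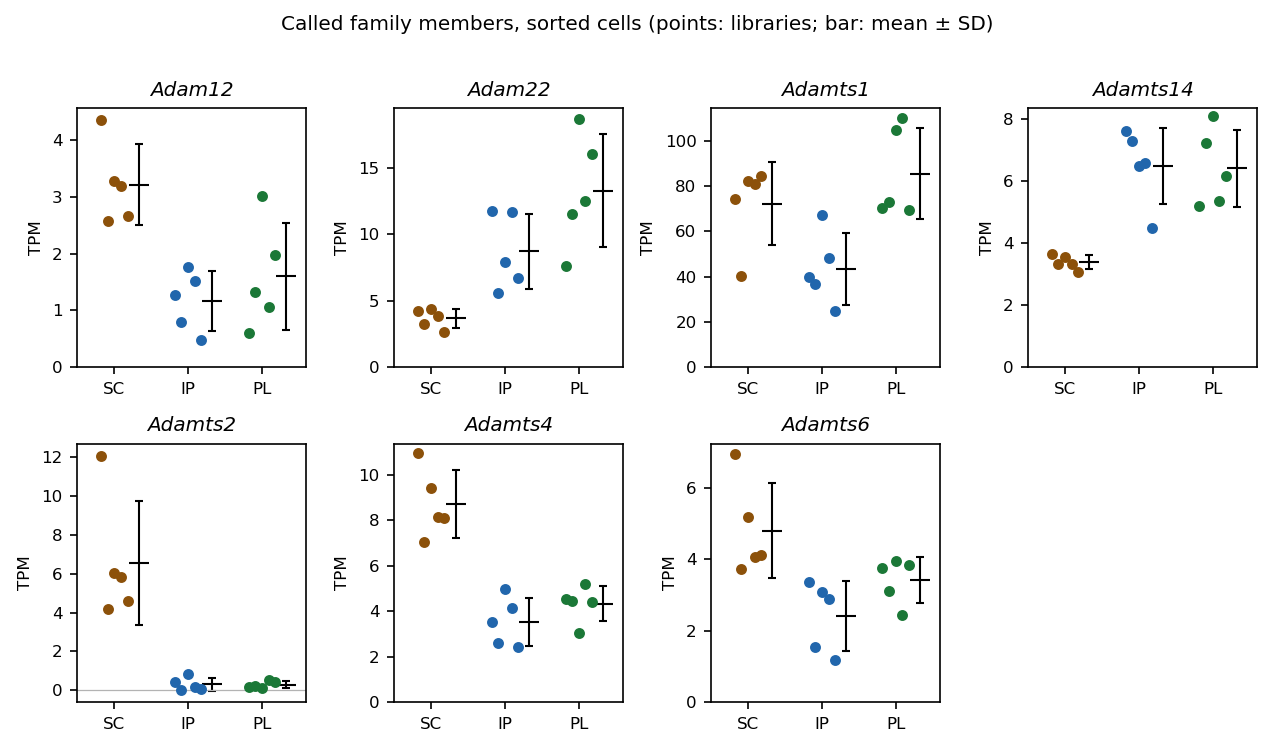
TPM of the 7 members called in sorted CD45-negative, mCherry-positive cells, by site (SC subcutaneous, IP peritoneal, PL pleural), with 1 point per library and bars for mean ± SD (n = 5 per site). Adamts2 and Adamts4 are higher in all subcutaneous libraries than at the serosal sites, and Adam22 and Adamts14 are lower there.

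The procollagen N-propeptidases gave the largest contrast. Adamts2 and Adamts14 trim the N-terminal propeptide of fibrillar procollagens, and their zinc-site lines above have an intron at the same base. In sorted cells Adamts2 measured 12.1, 4.20, 6.02, 5.83 and 4.61 TPM in subcutaneous, 0.430, 0.0352, 0.828, 0.180 and 0.0884 in peritoneal and 0.160, 0.218, 0.128, 0.542 and 0.421 in pleural libraries. No serosal library reached 1 TPM, and subcutaneous library 1 was the highest. Adamts2 fell from 6.54 ± 3.18 TPM (mean ± SD, n = 5) to 0.294 ± 0.180 TPM (mean ± SD, n = 5) in pleural cells (log2FC -2.47, SE 0.23, adjusted p = 1.07e-05) and to 0.312 ± 0.325 TPM (mean ± SD, n = 5) in peritoneal cells (log2FC -2.47, SE 0.23, adjusted p = 6.4e-06). Both calls held in all 24 alternatives that gave a value, and the 5 TPM filter left Adamts2 untested. Adamts2 reached 1 TPM in 5 sorted libraries, all of them subcutaneous, so it met the filter for testing only through the site where it was high.

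Adamts14 measured 3.64, 3.34, 3.57, 3.32 and 3.08 TPM in sorted subcutaneous, 7.63, 7.31, 6.49, 6.58 and 4.50 in peritoneal and 5.20, 7.24, 8.10, 5.37 and 6.19 in pleural cells. The subcutaneous libraries were tightly grouped and below all others. Adamts14 rose from 3.39 ± 0.221 TPM (mean ± SD, n = 5) to 6.42 ± 1.24 TPM (mean ± SD, n = 5) in pleural (log2FC 0.74, SE 0.14, adjusted p = 0.00864) and to 6.501 ± 1.22 TPM (mean ± SD, n = 5) in peritoneal cells (log2FC 0.76, SE 0.14, adjusted p = 0.00321). The pleural call was lost without subcutaneous libraries 1 and 2 (log2FC 0.77, adjusted p = 0.0567). The Adamts2 level was above the Adamts14 level in 5 of 5 subcutaneous sorted libraries and in 0 of 5 peritoneal and 0 of 5 pleural ones.

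Whole tumours showed part of this. Adamts2 measured 13.9, 17.3, 12.4, 18.3 and 18.8 TPM in subcutaneous, 5.60, 6.51, 5.20, 5.68 and 6.25 in peritoneal and 3.01 (lowest), 5.35 (median) and 29.2 (highest) in pleural tumours. All peritoneal tumours lay below the subcutaneous range, and among pleural tumours all but number 3 did. The peritoneal difference was called (log2FC -1.31, SE 0.41, adjusted p = 0.0481), but was lost in 16 of 25 alternatives, among them leaving out any 1 subcutaneous or peritoneal tumour or pleural tumour 2, 4 or 5 (adjusted p = 0.0506 to 0.0998). The pleural difference was not called (log2FC -1.17, SE 0.39, adjusted p = 0.0601), and was called without pleural tumour 3 (log2FC -1.57, adjusted p = 0.000613). With all tumours kept, it was also called under median-of-ratios scaling (adjusted p = 0.0494) or quantile normalization (0.04965). Adamts14 measured 3.67, 5.19, 4.81, 5.22 and 4.43 TPM in subcutaneous, 6.51, 5.75, 5.07, 5.68 and 5.23 in peritoneal and 4.28 (lowest), 4.85 (median) and 6.41 (highest) in pleural tumours, with overlapping ranges and no call. Adamts2 was above Adamts14 in 5 of 5 subcutaneous, 3 of 5 peritoneal and 3 of 6 pleural tumours.

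**Figure D4:**
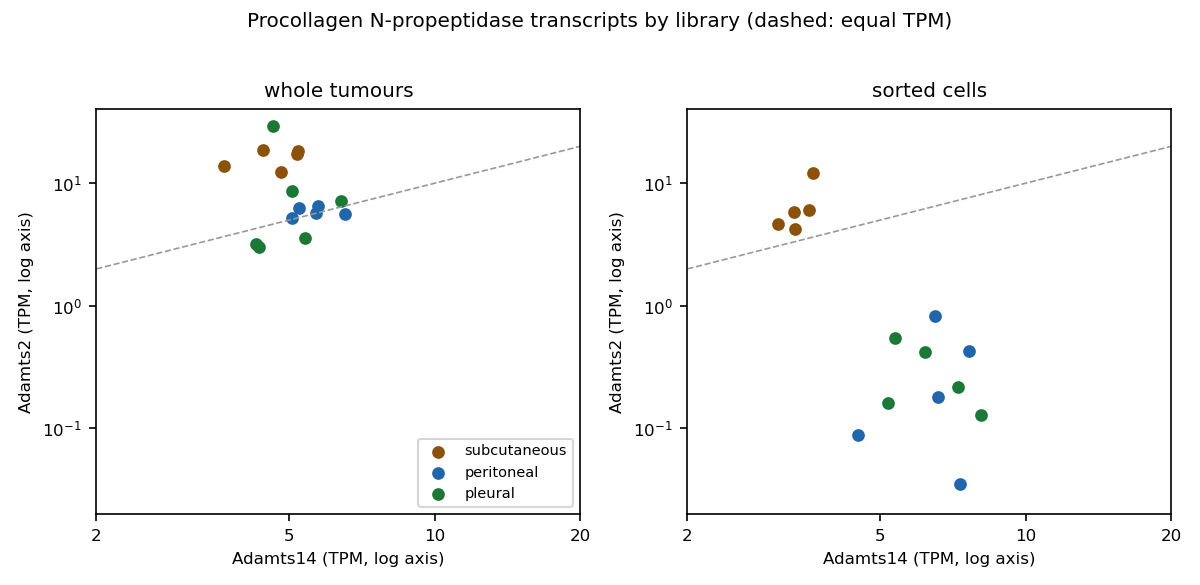
Adamts2 against Adamts14 in TPM for each library (both axes log), in whole tumours on the left and sorted cells on the right, coloured by site, with a dashed line at equal TPM. In sorted cells all 5 subcutaneous libraries lie above the line and all 10 serosal libraries below it.

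Markers of several other cell types were also read, and the ranges of some sums overlapped between sites. Of 10 fibroblast markers 8 were listed for sorted cells and summed to 251 to 472 TPM in subcutaneous, 144 to 294 in peritoneal and 119 to 288 in pleural libraries. Of these 8, Thy1 was at 27.8 to 74.9 TPM in subcutaneous against 1.31 to 8.59 in peritoneal and 1.95 to 3.46 in pleural sorted libraries. Col14a1 was at 1.87 to 9.63 TPM against 0.128 to 0.417 and 0.121 to 0.929. These 2 do not stand for the list. Its sum was 294 TPM in peritoneal library 4 and 288 in pleural library 1, above the 251 of subcutaneous library 4. Of 8 endothelial markers 6 were listed and summed to 23.0 to 35.9, 4.83 to 13.8 and 6.002 to 25.8 TPM. In whole tumours all 10 fibroblast markers summed to 469 to 691 TPM in subcutaneous, 271 to 417 in peritoneal and 248 to 772 in pleural tumours. Skeletal muscle markers (8 of 8 listed) summed to 57.8 to 1122 TPM in subcutaneous and 5.73 to 10.3 in peritoneal tumours, and to 116 and 611 TPM in pleural tumours 3 and 5 against 5.61 to 9.06 in the other pleural tumours. In sorted cells 1 of those 8 was listed, at 1.85 to 5.36 TPM. Macrophage markers (8 of 8) summed to 2259 to 2876 TPM in subcutaneous, 1244.5 to 2119 in peritoneal and 1560.2 to 3192 in pleural tumours. The part of these cell types in the levels of Adamts2, Adamts4, Adam12, Adamts6 and Adamts12 was not tested.

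Adamts12, a member that cleaves cartilage oligomeric matrix protein, was low throughout. It measured 1.52, 2.52, 2.49, 2.98 and 2.90 TPM in subcutaneous, 0.433, 1.06, 0.683, 0.798 and 0.873 in peritoneal and 0.446 (lowest), 0.834 (median) and 1.79 (highest) in pleural whole tumours. Pleural tumour 3 overlapped the subcutaneous range, and no peritoneal tumour did. Adamts12 fell in pleural (log2FC -0.88, SE 0.17, adjusted p = 0.00650) and in peritoneal tumours (log2FC -0.97, SE 0.18, adjusted p = 0.00449). It was not among the entries listed for sorted cells. Adamts7, which cleaves the same protein, had site means of 2.29 to 3.08 TPM and was not called.

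Adamts6 and Adamts10 are linked to fibrillin microfibrils. Adamts6 measured 6.95, 3.72, 5.20, 4.06 and 4.13 TPM in sorted subcutaneous, 3.36, 1.54, 3.08, 2.89 and 1.18 in peritoneal and 3.77, 3.12, 3.94, 2.45 and 3.84 in pleural cells. The peritoneal libraries lay below the subcutaneous ones (log2FC -0.79, SE 0.20, adjusted p = 0.0219), and the call was lost without subcutaneous library 1 (log2FC -0.67, adjusted p = 0.0595), without peritoneal library 2 (log2FC -0.70, adjusted p = 0.0644) and without peritoneal libraries 2 and 5 (log2FC -0.47, adjusted p = 0.118). In whole tumours Adamts6 measured 2.99, 2.16, 3.33, 2.99 and 2.91, then 2.65, 3.36, 1.82, 2.05 and 2.41 TPM in subcutaneous and peritoneal and 2.47 (lowest), 2.80 (median) and 3.29 (highest) in pleural tumours, with no call.

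Adamts10 measured 14.8, 9.52, 13.0, 16.1 and 13.3 TPM in subcutaneous, 21.02, 25.6, 14.5, 12.8 and 17.7 in peritoneal and 11.6 (lowest), 19.5 (median) and 27.9 (highest) in pleural tumours. It varied widely within each site and was called higher in pleural than subcutaneous tumours only without pleural tumour 5 (log2FC 0.63, adjusted p = 0.0364). In sorted cells it measured 10.0, 9.82, 9.67, 4.90 and 6.75, then 10.4, 16.5, 10.0, 11.2 and 6.38 and 10.5, 6.85, 7.32, 6.97 and 7.78 TPM in subcutaneous, peritoneal and pleural libraries, also overlapping.

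Of the ADAMTS-like genes, Adamtsl5, which encodes a secreted matrix protein, was by far the highest. It measured 25.1, 23.3, 30.3, 30.0 and 25.5 TPM in subcutaneous, 24.3, 30.5, 25.5, 24.7 and 27.3 in peritoneal and 15.02 (lowest), 23.4 (median) and 29.6 (highest) in pleural whole tumours. Sorted cells held 33.3, 32.8, 32.9, 36.2 and 32.4 TPM in subcutaneous, 38.1, 35.7, 39.3, 33.5 and 23.7 in peritoneal and 20.7, 37.5, 26.1, 23.1 and 30.8 in pleural libraries. Ranges overlapped in both kinds of sample. None of the 4 ADAMTS-like genes tested in whole tumours or the 3 tested in sorted cells was called. With 0.0531% to 12.8% of all genes called per comparison, so few genes cannot be set apart from the rest. Adam23, another member without a working site, had means of 1.80 TPM in subcutaneous, 0.788 in peritoneal and 0.995 in pleural tumours, and was called lower in peritoneal than subcutaneous tumours only under median-of-ratios scaling (adjusted p = 0.0478) or quantile normalization (0.0296), or without subcutaneous tumour 1 (0.0275) or peritoneal tumour 7 (0.0257).

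Adamts8, Adamtsl2 and Adam11 reached 1 TPM in too few tumours to be tested. Adamts8, a proteoglycan-cleaving member, measured 14.2 TPM in pleural tumour 3 and at most 0.470 TPM in every other whole tumour. Adamtsl2, which binds the latent TGF-beta protein LTBP1, measured 10.4 TPM in pleural tumour 3 and 0.175 to 1.40 TPM elsewhere. Both were highest in the tumour with the highest stromal marker sums, and the part of those cells was not tested. Adam11 had its highest value, 1.77 TPM, in the same tumour.

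**Figure D5:**
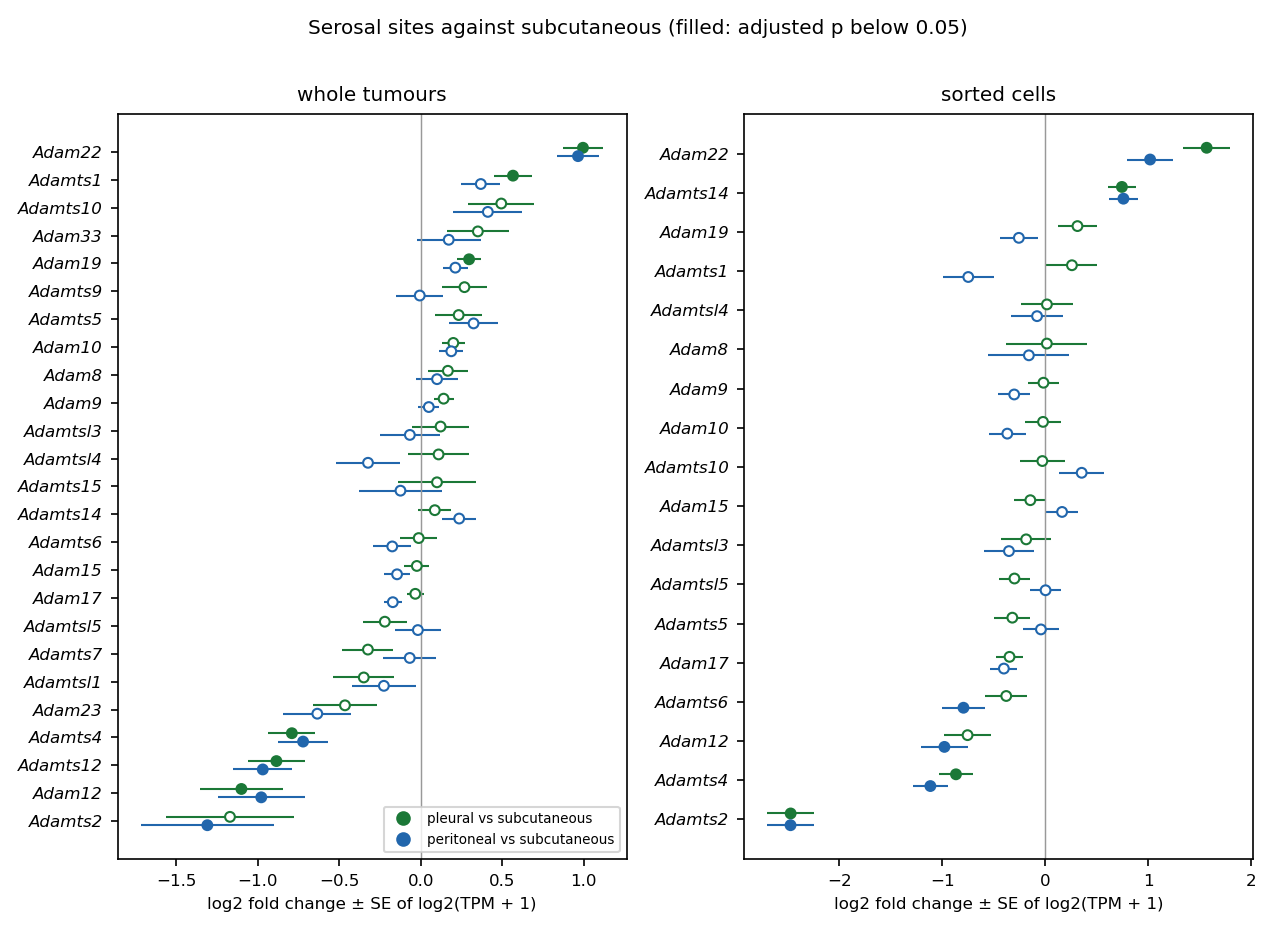
Difference from subcutaneous on the log2(TPM + 1) scale with SE, for each member tested, in pleural (green) and peritoneal (blue) samples, with whole tumours on the left and sorted cells on the right and filled points for adjusted p below 0.05. Adam22 has the highest and Adamts2 the lowest difference in both kinds of sample, in comparisons that share the subcutaneous libraries.

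Genes that act with the family were read from the same fits. Of 6 protease inhibitors 5 passed the filter for whole tumours, as did 3 for sorted cells. Timp3, the inhibitor of ADAM17 and the aggrecanases, measured 40.3, 14.4, 15.3, 21.6 and 15.7 TPM in sorted subcutaneous, 0.788, 0.384, 2.02, 0.406 and 0.288 in peritoneal and 1.40, 0.895, 1.01, 1.83 and 3.21 in pleural cells. No serosal library came near the subcutaneous range. Timp3 fell in sorted pleural (log2FC -3.03, SE 0.30, adjusted p = 2.11e-05) and peritoneal cells (log2FC -3.63, SE 0.30, adjusted p = 2.81e-06), and in pleural (log2FC -1.18, SE 0.32, adjusted p = 0.0276) and peritoneal whole tumours (log2FC -1.60, SE 0.33, adjusted p = 0.00848). The part of the other cell types, whose marker sums are given above, was not tested for the inhibitors in either kind of sample.

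Timp1, a broad inhibitor that also blocks ADAM10, fell as well, from 489 ± 42.8 TPM to 329.9 ± 29.1 TPM in sorted pleural cells (log2FC -0.57, SE 0.09, adjusted p = 0.00138) and to 279 ± 30.5 TPM in peritoneal cells (log2FC -0.81, SE 0.09, adjusted p = 2.35e-05). In whole tumours Timp1 fell in pleural (log2FC -0.61, SE 0.17, adjusted p = 0.0297) and peritoneal tumours (log2FC -0.72, SE 0.18, adjusted p = 0.0182). Pleural tumour 3 stood apart for both inhibitors. It held 497 TPM of Timp1 against 239 to 294 in the other pleural tumours and 307 to 544 in subcutaneous ones, and 52.9 TPM of Timp3 against 10.1 to 31.0 and 35.5 to 54.2. The general protease trap A2m rose in pleural (log2FC 1.38, SE 0.34, adjusted p = 0.0188) and peritoneal whole tumours (log2FC 2.50, SE 0.36, adjusted p = 0.000623). Among inhibitors tested in sorted cells 2 of 3 fell in each serosal comparison, where 1.25% of all genes were called lower in pleural and 6.33% in peritoneal cells.

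The 3 partners that carry ADAM17 to the cell surface and the tested ADAM10 tetraspanins (5 in whole tumours, 3 in sorted cells) had 0 calls by limma in all 6 comparisons. From 0.0531% to 12.8% of all genes were called per comparison, so 0 calls among so few genes cannot set them apart from other genes. Rhbdf2, the partner of ADAM17 in immune cells, had whole-tumour site means of 16.1 to 17.2 TPM and sorted-cell site means of 9.51 to 11.1 TPM. Its log2FC in sorted peritoneal against subcutaneous cells was -0.22 (SE 0.12, adjusted p = 0.255), the largest of the 6 differences. Of 14 genes shed by ADAM10 and ADAM17 that were tested in sorted cells, 6 fell in peritoneal against subcutaneous cells and 0 rose, where 6.33% of all genes were called lower and 4.75% higher. They had a median log2FC of -0.55 against -0.03 over all genes. The EGF receptor ligand Hbegf fell from 93.9 ± 19.8 TPM to 39.5 ± 6.41 TPM (log2FC -1.21, SE 0.17, adjusted p = 0.000366), and Areg, Btc, Cd44, Ereg and Tnf were the others called. Tnf was low and uneven, at 2.97 ± 2.94 TPM in subcutaneous and 0.271 ± 0.307 TPM in peritoneal cells, and its ranges overlapped. The part of the leukocyte transcripts of sorted subcutaneous libraries 1 and 2, given above, was not tested for these genes.

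Between pleural and peritoneal sorted cells 4 of these 14 genes were higher and 0 lower, where 4.45% of all genes were called higher and 5.51% lower. Hbegf (log2FC 1.26, SE 0.17, adjusted p = 0.00114) and Ereg (log2FC 1.43, SE 0.30, adjusted p = 0.0110) had the largest differences, followed by Areg and Cd44. In whole tumours 1 of 17 shed genes rose in pleural against subcutaneous tumours, Cx3cl1 (log2FC 0.37, SE 0.09, adjusted p = 0.0216), where 9.4% of all genes were called higher, so the share in this list was no larger. In peritoneal against subcutaneous tumours 3 of 17 fell, where 3.64% of all genes were called lower, and these were Cxcl16 (log2FC -0.93, SE 0.18, adjusted p = 0.00502), Ereg (log2FC -0.87, SE 0.21, adjusted p = 0.0184) and Cd44 (log2FC -0.35). These are transcript levels and hold no measure of shedding.

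Matrix substrates were read in the same way. Versican (Vcan), a proteoglycan cut by ADAMTS1 and ADAMTS4, had whole-tumour site means of 73.8 to 82.8 TPM and sorted-cell site means of 95.5 to 101 TPM, and no call. The small proteoglycan biglycan (Bgn) fell in sorted pleural (log2FC -0.76) and peritoneal cells (log2FC -0.90, SE 0.15, adjusted p = 0.00192) and in peritoneal whole tumours (log2FC -0.63, SE 0.14, adjusted p = 0.0115). Of 9 procollagen and procollagen-processing genes tested in sorted cells, 4 fell and 1 rose in peritoneal against subcutaneous cells, where 6.33% of all genes were called lower and 4.75% higher. Col1a1 (log2FC -0.91, SE 0.15, adjusted p = 0.00144), Col5a2 (log2FC -0.78, SE 0.20, adjusted p = 0.0206), Col1a2 (log2FC -0.58, SE 0.17, adjusted p = 0.0433) and Col5a1 fell, and Pcolce, the enhancer of C-propeptide removal, rose (log2FC 0.40). Pcolce was also the only gene of this list called between pleural and peritoneal sorted cells, where it was lower in pleural ones (log2FC -0.56, SE 0.07, adjusted p = 0.000653). In that comparison 5.51% of all genes were called lower, so 1 call among 9 genes was near the share of all genes.

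Col1a1 was the only one of the 9 called in sorted pleural against subcutaneous cells (log2FC -0.81), where 1.25% of all genes were called lower. The collagen chaperone Serpinh1 was the only gene of this list called in whole tumours, where 9 were tested. It was higher in peritoneal than subcutaneous ones (log2FC 0.33, SE 0.09, adjusted p = 0.0238). There 8.52% of all genes were called higher, so the share in this list was near that of all genes. The microfibril gene Mfap5 fell in sorted pleural (log2FC -1.57, SE 0.14, adjusted p = 6.54e-06) and peritoneal cells (log2FC -1.26) and in pleural (log2FC -0.97, SE 0.22, adjusted p = 0.0114) and peritoneal whole tumours (log2FC -0.78). Fibrillin 1 (Fbn1) fell in sorted peritoneal cells (log2FC -0.84, SE 0.26, adjusted p = 0.0498). Nid2, a basement membrane substrate of Adamts1, fell in sorted pleural (log2FC -1.31) and peritoneal cells (log2FC -1.62, SE 0.18, adjusted p = 3.83e-05). Thrombospondin 1 (Thbs1), also cut by Adamts1, fell in sorted peritoneal against subcutaneous cells (log2FC -1.03) and was higher in pleural than peritoneal cells (log2FC 1.20, SE 0.31, adjusted p = 0.0266), the comparison in which Adamts1 was called higher as well. The marker values given above for other cell types lie beside these matrix results too, and their part was not tested.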

How the data were processed

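RNA was taken with RNeasy Plus Mini kits from whole tumours and Plus Micro kits from sorted cells and sequenced as single-end reads, per the labels' protocols. The authors deposited TPM per gene in separate tables for whole tumours and sorted cells. Per the submitters' processing notes kallisto and GRCm39 were used, while the kallisto version and the annotation were not given in the sources used here. Only genes above 1 TPM in at least 1 library are in the sorted table, so the tables were never tested against each other. Entries named as dates (17, sorted table) were left out.

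Each table was fitted once over its 3 sites with limma 3.58.1 in R 4.3.3 (trend, no covariates) on log2(TPM + 1), for genes at 1 TPM or more in at least 5 libraries. P-values were adjusted by the Benjamini-Hochberg method over all genes tested. The procedure was tested on simulated data. The labels name a mouse for each library, which numbers it here (some peritoneal tumour libraries carry another number in the table), and no batch. Other settings tried were a 5 TPM filter, no filter, a pseudocount of 0.1, median-of-ratios scaling, quantile normalization, only the sites compared, robust variances, a replicate block, and leaving out each library. Leaving out pleural tumours 3 and 5, sorted subcutaneous libraries 1 and 2 or sorted peritoneal libraries 2 and 5 was added after seeing the data.

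Members called in at least 1 comparison and the 8 of highest mean TPM in whole tumours were named with every sample. Related genes named were up to 3 called per list and table, plus Timp1, Timp3, Rhbdf2 and Vcan, and any further called gene was named after its values were seen. The members and lists were chosen with earlier results of these data known. Zinc-site stretches were found by translating GENCODE M21 transcripts (GRCm38), searching for histidine-glutamate, 2 residues, histidine, 5 residues, histidine.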

Additional observations from a re-analysis of the deposited data

Results flagged for a closer look

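A library was singled out where its gap to the nearest other library of its group was large against the range of that group (Dixon's 95% criterion). This held in 12 of 99 groups of member values tested. The groups were those of the members named with every sample, plus Adamts8 and Adamtsl2, which were outside that naming rule. Both of these were flagged, so the count cannot be set against a chance rate. Pleural whole tumour 3 was the highest of its group in 5 of the 12 flagged groups: Adam12 at 7.54 TPM, Adamts2 at 29.2 TPM, Adamts4 at 10.2 TPM, Adamts8 at 14.2 TPM and Adamtsl2 at 10.4 TPM. Fibroblast markers summed to 772 TPM in that tumour, and their part was not tested.

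In the other whole tumours, subcutaneous tumour 1 was low for Adam12 at 4.72 TPM, peritoneal tumour 2 was low for Adam17 at 47.8 TPM, and the same tumour was high for Adamts4 at 10.1 TPM. Among sorted cells, subcutaneous library 1 was high for Adamts2 at 12.1 TPM, subcutaneous library 2 was low for Adamts1 at 40.1 TPM, subcutaneous library 4 was high for Adamtsl5 at 36.2 TPM, and pleural library 1 was high for Adamts10 at 10.5 TPM.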

How the results depend on the processing

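Of 150 counts of called members under alternatives 133 stayed within 1.5 times the count reported, and of 544 values of single members 506 kept their call, 38 lost it and 0 changed direction. Leaving out 1 library gave 6 to 7 calls for pleural against subcutaneous tumours, 3 to 6 for peritoneal against subcutaneous tumours, 0 for pleural against peritoneal tumours, and 4 to 5, 5 to 7 and 0 to 2 for the same comparisons in sorted cells. The replicate block left 3 of 5 peritoneal calls in whole tumours. Mouse numbers name different animals at each site. Same-numbered libraries correlated at -0.377 to 0.349, and in each comparison 1 or 2 of the 4 or 5 numbers correlated best with their own. So few correlations cannot tell whether same-numbered libraries share more than a number. A 5 TPM filter left 3 calls for sorted peritoneal against subcutaneous cells, where Adamts2, Adam12 and Adamts6 were no longer tested. Leaving out sorted subcutaneous libraries 1 and 2 left 2 pleural calls. Pleural against peritoneal sorted cells gave 2 calls with median-of-ratios scaling, 2 with quantile normalization and 0 without peritoneal libraries 2 and 5. Causes of the other changes were not tested. TPM keeps no depth, so counting error at low levels is unknown, and p-values rest on 5 or 6 libraries per group.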
